A study of Mus musculus with 4 samples.

Results

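Glycolysis and the response to low oxygen were followed through 40 genes, chosen by symbol: the enzymes and transporters that carry glucose to lactate, the regulators at their control points, the oxygen-sensing factors, and a set of widely used hypoxia-response and glycogen genes. All 40 were found among the 56004 gene entries of the tables. Aldoa was listed on 2 entries and was represented by the one of higher mean. The unit was taken to be FPKM, a count of fragments scaled to transcript length and library size, so levels could be set beside each other between genes. Between libraries the comparison rests on that scaling alone, and results under other scalings are given at the end. A gene was tested where it reached 1 FPKM in at least 2 libraries, which held for 12193 genes and 36 of the 40 members.

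The libraries came from mouse cells labelled as Kupffer cells, which are macrophages that reside in the liver, 48 h after tumour exosomes were added. Exosomes are small vesicles that cells release. In 2 libraries (PRL-3) they came from MC38-PRL-3 cells and in the other 2 (VT) from MC38-VT cells, the control, MC38 being a mouse colon carcinoma line and PRL-3 the phosphatase encoded by Ptp4a3. All 4 cultures thus received exosomes, there was no untreated group, VT is not spelled out, and an amount of 10 ug stands beside the VT exosomes only. Strain, sex and age of the mice, the isolation of the cells and the way the MC38 lines were made were not stated. Labels call the libraries of one group biological replicates. What separated their cultures was not stated, so p values measure only the spread between these libraries.

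In glycolysis, glucose enters through transporters such as Slc2a1, is trapped by hexokinases, is split into triose phosphates and is turned into pyruvate, with a net gain of ATP. Lactate dehydrogenase then reduces pyruvate to lactate, which leaves through monocarboxylate transporters, or pyruvate enters mitochondria through pyruvate dehydrogenase, which Pdk kinases restrain. When oxygen falls, prolyl hydroxylases (Egln genes) no longer mark the alpha subunit of hypoxia-inducible factor (HIF) for the Vhl ubiquitin ligase, and HIF raises most of these genes at once. Macrophages exposed to inflammatory signals are known for high glycolysis, partly through the same factor.

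The libraries were alike in depth: low values fitted 17.2 to 18.7 in units of 1e6 fragments a library. The FPKM values, which are already scaled to library size and so do not measure depth, summed to 675475 to 725599. PRL-3 replicate 1 stood apart: over all genes tested, the SD of its log2 ratio to any other library was 0.402 to 0.412, against 0.313 to 0.366 among the other 3. Macrophage genes such as Lyz2 (5916 to 6831 FPKM) and Cd68 (538 to 625) were abundantly expressed in all 4 libraries, so the cells were macrophages by these genes. Of 8 macrophage markers 7 reached 1 FPKM, while Mertk was listed at 0.02 FPKM in VT replicate 2 and at 0 elsewhere. Of 9 Kupffer cell markers, however, Clec4f, Vsig4, Timd4, Marco and Cd163 were listed at 0 in all 4 libraries, and only Cd5l reached 1 FPKM, at 2.36 and 1.05 in PRL-3 libraries against 3.52 and 3.51 in VT libraries. The 8 macrophage markers summed to 7910 and 8020 FPKM in PRL-3 libraries, against 9040 and 9100 in VT libraries, most of it Lyz2 (5916 and 5988 against 6822 and 6831). The markers did not move together: Fcgr1 was higher in PRL-3 libraries (115 and 80.4 against 69.5 and 76.7 FPKM), Cd14 was lower (884 and 1048 against 1152 and 1206), and Adgre1, Itgam, Cd68 and Csf1r overlapped. Of 6 stellate cell and fibroblast markers, Lrat was at 0 and Dcn overlapped (6.63 and 4.32 FPKM in PRL-3 libraries against 5.44 and 4.65), while the other 4 were higher with PRL-3 exosomes. Acta2 was at 1.94 and 2.61 FPKM in PRL-3 libraries against 0.97 and 0.86 in VT libraries, Col1a1 at 0.68 and 0.52 against 0.01 and 0.03, and Col1a2 and Col3a1 at 0.34 to 0.86 FPKM against 0 in both VT libraries. The list summed to 10.4 and 8.78 FPKM against 6.42 and 5.54. Hepatocyte, sinusoidal endothelial, epithelial, and T and B cell lists stayed at or under 0.46 FPKM in every library. The 3 neutrophil markers summed to 217 and 271 FPKM against 309 and 247, nearly all of it S100a8, with Ly6g at 0. Whether a change in the makeup of the cells had a part in any result here was not tested, and in bulk RNA fewer cells of a type and less RNA per cell cannot be told apart.

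No member passed the test between the groups. By limma, with p values adjusted by Benjamini-Hochberg over every gene tested, 0 of 36 members were called, beside 6 of 12193 genes in all (0.0492%), and the adjusted p values of the members lay between 0.45 and 1.0. At an unadjusted p under 0.05 there were 6 members lower in PRL-3 libraries (16.7%, beside 3.85% of all genes) and 2 higher (5.56%, beside 5.66%). The 6 were Bnip3, Slc16a3, Pfkl, Pdk1, Tpi1 and Slc16a1, and the 2 were Adm and Eno2. In GENCODE M21 (GRCm38) the genes lie at chr7:138890836-138909519 (Bnip3), chr11:120948480-120960868 (Slc16a3), chr10:77986947-78010083 (Pfkl), chr2:71873224-71903858 (Pdk1), chr6:124810586-124814296 (Tpi1), chr3:104638668-104658462 (Slc16a1), chr7:110627661-110629820 (Adm) and chr6:124760053-124769673 (Eno2). Both PRL-3 libraries were below both VT libraries for 14 members (38.9%, beside 18% of all genes), above both for 2 (5.56%, beside 24.3%), and overlapped them for 20. The mean was lower in PRL-3 libraries for 29 of 36 members (80.6%, beside 46.6% of all genes), and the median difference was -0.07 on the log2(FPKM + 1) scale, beside 0.02 over all genes. Differences are PRL-3 minus VT throughout. The members were chosen with earlier results of these data known, so their shares are a description and not those of an unselected set. The genes of one pathway are not independent of each other, and with 2 libraries against 2 an exact two-sided permutation test of a single gene cannot go below 0.33.

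**Figure D1:**
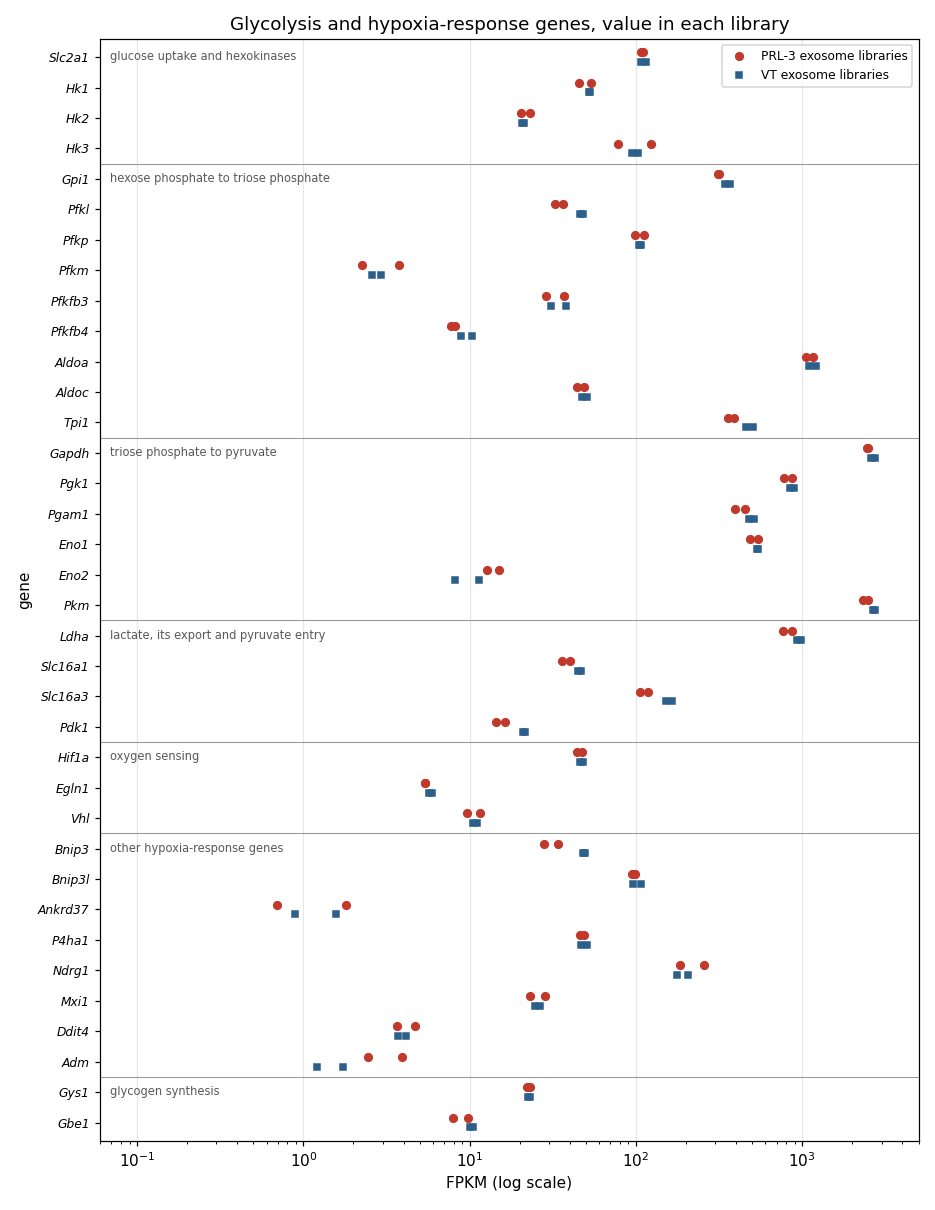
FPKM (log scale, x axis) of the 36 tested members (y axis, grouped by role) in each library, with circles for the 2 PRL-3 libraries and squares for the 2 VT libraries. The levels run from 0.69 FPKM (Ankrd37) to 2746 FPKM (Gapdh), and the distance between the groups is small beside that range for every member.

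**Figure D2:**
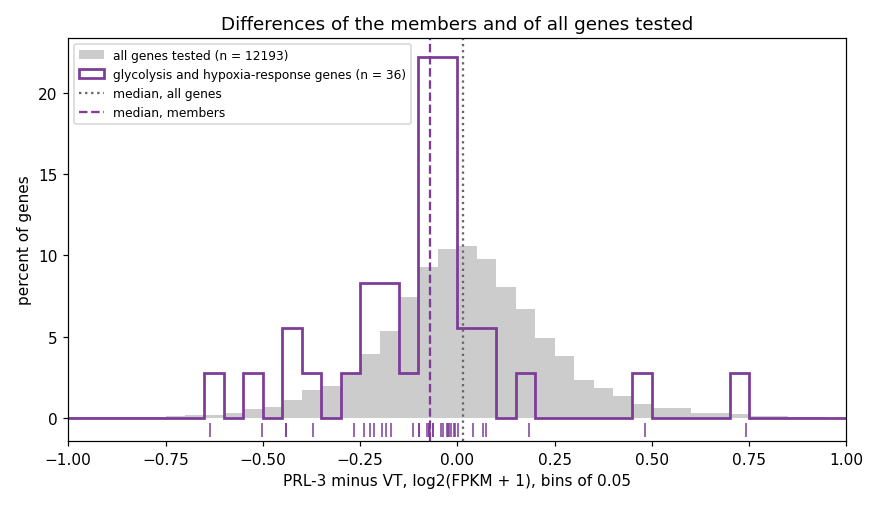
Distribution of the PRL-3 minus VT difference (x axis, log2(FPKM + 1), bins of 0.05) as the percent of genes (y axis) for all 12193 genes tested in grey and for the 36 members in outline, with a tick for each member and lines at both medians. The members pile up just under 0 with a tail to -0.64 (Bnip3), and only Eno2 and Adm lie far to the right.

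The promoters of the members with the lowest p values were read from RefSeq (GRCm38.p6), 250 bases before to 50 after the gene's start, to show the DNA on which HIF acts. The core of the HIF element, ACGTG or GCGTG on either strand, was searched in each. It was present in 28 of the 38 members with a sequence (73.7%) and in 11848 of 27025 promoters of all genes (43.8%). The longer palindrome CACGTG, which contains the core on both strands and is also bound by MYC and USF factors, was in 6 members (15.79%) and in 1956 of all promoters (7.24%). The members had been listed as glycolysis and hypoxia genes, so the share describes the list and not the response to exosomes, and a match is not a bound site. Printed below are the 4 members of lowest p (Bnip3, Slc16a3, Pfkl and Pdk1) and Adm, the member with the highest difference, all chosen after their values were seen. The windows are chr7:138909457-138909756 on the minus strand for Bnip3, chr11:120948817-120949116 on the plus strand for Slc16a3, chr10:78009758-78010057 on the minus strand for Pfkl, chr2:71872974-71873273 on the plus strand for Pdk1 and chr7:110627407-110627706 on the plus strand for Adm, each written from 5′ to 3′ along the gene with every core on either strand in capitals.
Bnip3: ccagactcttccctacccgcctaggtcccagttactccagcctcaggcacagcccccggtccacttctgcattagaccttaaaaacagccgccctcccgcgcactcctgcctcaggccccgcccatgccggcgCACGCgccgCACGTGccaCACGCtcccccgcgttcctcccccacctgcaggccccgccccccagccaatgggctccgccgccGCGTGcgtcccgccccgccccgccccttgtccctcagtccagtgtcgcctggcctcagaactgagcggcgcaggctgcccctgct
Slc16a3: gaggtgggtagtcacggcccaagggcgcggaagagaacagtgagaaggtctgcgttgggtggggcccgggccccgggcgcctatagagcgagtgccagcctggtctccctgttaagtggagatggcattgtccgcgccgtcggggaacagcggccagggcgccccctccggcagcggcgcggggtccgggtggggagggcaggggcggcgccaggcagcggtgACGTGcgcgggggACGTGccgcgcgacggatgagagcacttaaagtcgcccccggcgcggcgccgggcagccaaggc
Pfkl: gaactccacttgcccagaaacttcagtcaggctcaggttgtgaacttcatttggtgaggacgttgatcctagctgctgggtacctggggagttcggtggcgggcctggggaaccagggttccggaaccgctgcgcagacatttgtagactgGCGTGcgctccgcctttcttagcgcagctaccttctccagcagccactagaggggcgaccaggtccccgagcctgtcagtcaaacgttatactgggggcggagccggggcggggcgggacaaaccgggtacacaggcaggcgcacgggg
Pdk1: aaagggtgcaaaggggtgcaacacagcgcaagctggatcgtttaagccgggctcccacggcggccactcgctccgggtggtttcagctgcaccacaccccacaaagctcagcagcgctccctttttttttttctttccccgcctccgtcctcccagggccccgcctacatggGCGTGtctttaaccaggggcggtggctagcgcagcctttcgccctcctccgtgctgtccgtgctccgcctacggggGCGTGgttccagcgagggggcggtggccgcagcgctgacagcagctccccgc
Adm: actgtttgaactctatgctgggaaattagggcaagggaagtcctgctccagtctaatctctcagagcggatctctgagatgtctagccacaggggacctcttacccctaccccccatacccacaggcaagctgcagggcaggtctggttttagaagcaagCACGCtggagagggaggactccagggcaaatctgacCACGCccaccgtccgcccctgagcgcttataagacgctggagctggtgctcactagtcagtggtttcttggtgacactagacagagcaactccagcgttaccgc
The cores counted 5 in Bnip3, where CACGTG counts on both strands, 2 in Slc16a3, 1 in Pfkl, 2 in Pdk1 and 2 in Adm. Slc16a1 had 5, and Tpi1 and Eno2 had 0 in this window. Cores were thus present both in members with lower and in one with higher values in PRL-3 libraries.

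The genes of glucose uptake and its first phosphorylation all overlapped between the groups. Slc2a1, the main glucose transporter of activated macrophages, had 110.3 and 108 FPKM in PRL-3 libraries and 115 and 107 FPKM in VT libraries, with a difference of -0.03 (SE 0.10, adjusted p = 0.96). The groups overlapped. Hk3, the hexokinase typical of myeloid cells, had 124 and 77.4 FPKM against 102 and 94.2, and its PRL-3 libraries lay on both sides of the VT libraries. Hk1 had 45.2 to 53.3 FPKM and Hk2, the isozyme that HIF raises, 20.4 to 23.0 FPKM over the 4 libraries, again with overlap. Hk3 made up 62.6% and 53.2% of the summed FPKM of the 3 hexokinases in PRL-3 libraries and 58.2% and 56.1% in VT libraries. Of these 4 genes, 0 were below the VT libraries (beside 18% of all genes) and 0 above (beside 24.3%).

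At the committed step of glycolysis, 1 of 3 isozymes was below the VT libraries and 0 above, beside 18% and 24.3% of all genes, and none was called. Pfkl, the liver-type phosphofructokinase, had 32.4 and 36.3 FPKM in PRL-3 libraries against 46.1 and 47.8 FPKM in VT libraries. Both PRL-3 values were lower, with means of 34.4 ± 2.76 and 47.0 ± 1.24 FPKM (SD, n = 2 each) and a difference of -0.44 (SE 0.11, 95% interval -0.70 to -0.18). Its adjusted p by limma was 0.45. Pfkp, the platelet type and the most abundant of the 3, had 111 and 99.0 FPKM against 107 and 104 and overlapped. Pfkm, the muscle type, stayed at 2.26 to 3.73 FPKM. The share of Pfkl in the sum of the 3 was accordingly 22.2% and 26.1% in PRL-3 libraries against 29.6% and 30.9% in VT libraries. Of the bifunctional enzymes that set the level of fructose 2,6-bisphosphate, Pfkfb3 had 28.7 to 38.1 FPKM with overlap. Pfkfb4 had 8.12 and 7.77 FPKM in PRL-3 libraries against 10.3 and 8.84 in VT libraries, a difference of -0.24 (adjusted p = 0.61) that was -0.14 without VT replicate 1.

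Downstream, Tpi1, which interconverts the 2 triose phosphates, had 358 and 388 FPKM in PRL-3 libraries against 459 and 506 FPKM in VT libraries. The PRL-3 mean was 0.773 of the VT mean, and the difference was -0.37 (SE 0.11, limma adjusted p = 0.49). Gpi1, the isomerase after hexokinase, also did not overlap, at 309.8 and 314 FPKM against 341 and 367 (difference -0.18, adjusted p = 0.63). Aldoa, the main aldolase, had 1167 and 1048 FPKM against 1101 and 1209, and Aldoc 44.4 to 50.6 FPKM, both with overlap. Aldoa was 95.9% to 96.0% of the 2 aldolases in every library. The 9 genes between hexose and triose phosphate had 4 members below the VT libraries (44.4%, beside 18% of all genes) and 0 above (beside 24.3%), with a median of -0.07.

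The 2 most abundant members belonged to the later steps of the pathway. Pkm, pyruvate kinase, had 2482 and 2325 FPKM in PRL-3 libraries against 2675 and 2732 FPKM in VT libraries, and Gapdh, which oxidises glyceraldehyde 3-phosphate, had 2476 and 2464 against 2600 and 2746. Both genes had lower values in both PRL-3 libraries, by differences of -0.17 (SE 0.12, adjusted p = 0.68) and -0.11 (SE 0.11, adjusted p = 0.79) that were within the error of the test. With quantile normalisation they were -0.08 for Pkm and -0.02 for Gapdh, and without VT replicate 2 Gapdh was at -0.07. Pgam1, phosphoglycerate mutase, had 394 and 453 FPKM against 478 and 509 (difference -0.22, adjusted p = 0.61, and -0.12 without PRL-3 replicate 1). Pgk1, phosphoglycerate kinase (780.1 to 894 FPKM), and Eno1, the ubiquitous enolase (484 to 542 FPKM), overlapped.

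Eno2, the enolase typical of neurons and also a HIF target, had higher values with PRL-3 exosomes. It had 15.03 and 12.65 FPKM in PRL-3 libraries and 11.3 and 8.13 FPKM in VT libraries. The difference was 0.48 (SE 0.18, 95% interval 0.05 to 0.92, limma adjusted p = 0.51), and it was 0.27 without VT replicate 2. Eno2 was 3.01% and 2.29% of the summed FPKM of Eno1 and Eno2 in PRL-3 libraries and 2.08% and 1.48% in VT libraries.

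Several of these genes have near-identical copies elsewhere in the genome, and how reads were assigned between a gene and its copies was not examined. Of the 40 members, 11 shared over 10% of the 50-base words of their longest transcript (GENCODE M21) with transcripts of other loci. For Eno1 the share was 72.2%, and the copy Gm4735 was listed at 732 and 762 FPKM in PRL-3 libraries and 705 and 786 FPKM in VT libraries, above Eno1 itself, while Eno1b was listed at 635 and 645 against 642 and 702. For Gapdh the share was 27.2%, and Gm13394 was listed at 3057 and 2982 FPKM against 3117 and 3263. For Pgk1 the share was 68.0%, with Gm5537 at 114 and 139 FPKM against 143 and 138, and for Pgam1 it was 41.5%, with Pgam1-ps2 at 30.8 and 0 FPKM against 35.4 and 24.8. Differences of Eno1, Gapdh, Pgk1 and Pgam1 are therefore uncertain. Bnip3 shared 48.9% of its words, but no copy of it passed 0.97 FPKM, and for Ldha (16.6%) none passed 0.6 FPKM. Slc16a3, Slc16a1, Pdk1 and Adm shared none, Pfkl shared 0.0543% and Tpi1 7.51%. Strand was not stated to be kept, so reads of overlapping antisense exons could not be told apart for 15 members. Among the 8 with a low p these were Tpi1, with 34 bases of Spsb2, and Bnip3, with 504 bases of Gm45507, which was listed at 0.

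The genes for lactate, its export and the entry of pyruvate into mitochondria had the lowest median among the role groups, at -0.35 over 4 tested genes, all of them below the VT libraries (100%, beside 18% of all genes). Slc16a3 (MCT4), the low-affinity lactate exporter of glycolytic cells, had 106 and 118 FPKM in PRL-3 libraries against 152 and 166 FPKM in VT libraries. The means were 112 ± 7.98 and 159 ± 9.28 FPKM (SD, n = 2 each). The gap between the groups was wider than the spread within either, and the difference was -0.50 (SE 0.11, 95% interval -0.77 to -0.23, limma adjusted p = 0.45). Slc16a1 (MCT1), which carries lactate in both directions, had 36.0 and 39.9 FPKM against 44.5 and 47.0. Its PRL-3 mean was 0.829 of the VT mean, with a difference of -0.27 (limma adjusted p = 0.51). Slc16a3 was 74.7% of the sum of both transporters in each PRL-3 library and 77.4% and 77.9% in VT libraries.

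Ldha, which forms lactate, had 771 and 872 FPKM in PRL-3 libraries and 925 and 978 FPKM in VT libraries. The groups did not overlap, but the gap was smaller than the spread within the PRL-3 pair, and the difference of -0.21 (SE 0.12) had an adjusted p of 0.62. Without PRL-3 replicate 1 it was -0.12. Ldhb, which favours the reverse reaction, was listed at 0.1 FPKM in PRL-3 replicate 2 and at 0 in the other 3 libraries, so Ldha was nearly the whole of lactate dehydrogenase mRNA here. Pdk1, the kinase that switches off pyruvate dehydrogenase under hypoxia, had 14.4 and 16.4 FPKM in PRL-3 libraries against 20.8 and 21.6 FPKM in VT libraries. Its difference was -0.44 (SE 0.11, 95% interval -0.72 to -0.16, limma adjusted p = 0.45). Pdk2 was meagerly expressed, at 0.71 and 0.38 FPKM against 0.46 and 0.72, and was not tested. With Pdk3, at 17.6 to 19.9 FPKM, as the third kinase, Pdk1 was 43.9% and 45.8% of the sum in PRL-3 libraries and 52.9% and 51.1% in VT libraries.

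**Figure D3:**
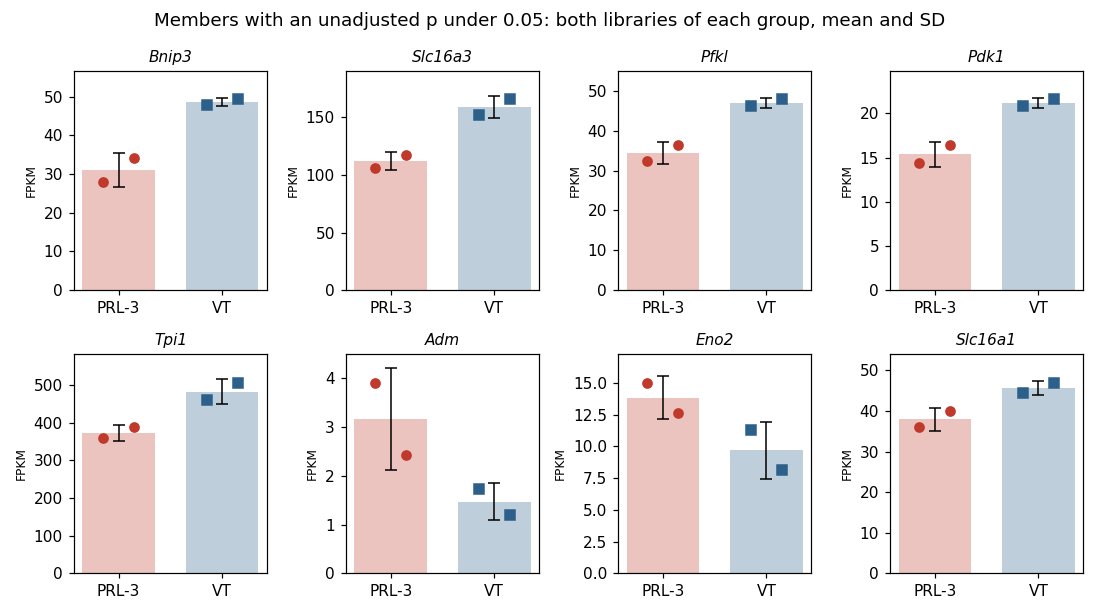
FPKM (y axis, from 0) of the 8 members with an unadjusted p under 0.05 in PRL-3 and VT libraries; points are libraries, bars group means and whiskers the SD (n = 2 each). In 6 panels both PRL-3 points lie under both VT points, as for Bnip3 (28.0 and 34.1 against 47.9 and 49.3), and in the panels of Adm and Eno2 both lie over them.

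Of the 3 tested oxygen-sensing genes, 1 was below the VT libraries (33.3%, beside 18% of all genes) and 0 above (beside 24.3%). Hif1a, the regulated subunit of HIF in macrophages, had 44.0 and 47.4 FPKM in PRL-3 libraries and 46.0 and 48.0 FPKM in VT libraries, with a difference of -0.04 (SE 0.10, 95% interval -0.29 to 0.20). Vhl, the part of the ubiquitin ligase that recognises hydroxylated HIF, had 11.5 and 9.61 FPKM against 10.4 and 11.02. Both genes overlapped between the groups. Egln1, the main prolyl hydroxylase, had 5.40 and 5.35 FPKM in PRL-3 libraries against 5.68 and 5.97 FPKM in VT libraries (difference -0.10, adjusted p = 0.83). Egln3, the hydroxylase that HIF itself raises in many cells, was listed at 0.02 FPKM in VT replicate 2 and at 0 in the other 3 libraries. HIF activity is set mainly at the protein level, which was not measured.

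Among the remaining hypoxia-response genes, Bnip3 and Adm were the 2 extremes of all 36 members, in opposite directions. Bnip3, a mitochondrial receptor for mitophagy and a direct HIF target, had 28.0 and 34.1 FPKM in PRL-3 libraries and 47.9 and 49.3 FPKM in VT libraries. The PRL-3 mean was 0.639 of the VT mean, and the difference of -0.64 (SE 0.12, 95% interval -0.94 to -0.33) had a limma adjusted p of 0.45. Those values rested on about 731 and 949 fragments against 1320 and 1398. Bnip3 was called only without PRL-3 replicate 2 (difference -0.77, adjusted p = 0.046), where 100 genes were called in all (0.837%), and its adjusted p under the other settings was not under 0.05. Its relative Bnip3l, also a mitophagy receptor, had 94.1 and 98.1 FPKM in PRL-3 libraries and 106 and 96.0 FPKM in VT libraries and overlapped. Bnip3 was 22.9% and 25.8% of the sum of both in PRL-3 libraries against 31.0% and 33.9% in VT libraries.

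Adm encodes adrenomedullin, a secreted vasodilator peptide raised by HIF. It had 3.91 and 2.43 FPKM in PRL-3 libraries and 1.74 and 1.2 FPKM in VT libraries, about 77 and 52 fragments against 37 and 26. Both PRL-3 values were higher, the PRL-3 mean was 2.16 times the VT mean, and the difference was 0.74 (SE 0.24, 95% interval 0.16 to 1.32, limma adjusted p = 0.49). It was 0.33 with a pseudocount of 5 and 0.48 without PRL-3 replicate 1. Its low level makes it one of the less precise members. Ndrg1, a stress-response gene that hypoxia raises, had 256 and 183 FPKM in PRL-3 libraries and 204 and 178 FPKM in VT libraries, and its positive difference of 0.18 rested on PRL-3 replicate 1, since it was -0.05 without that library.

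The other tested genes of this role overlapped. P4ha1, a collagen prolyl hydroxylase subunit, had 46.0 to 50.4 FPKM over the 4 libraries, Mxi1, an antagonist of MYC, 22.9 to 28.6 FPKM, and Ddit4, an inhibitor of mTORC1, 3.67 to 4.70 FPKM. Ankrd37, a HIF target of little known function, had 0.69 and 1.8 FPKM in PRL-3 libraries and 1.58 and 0.89 FPKM in VT libraries, on 8 to 23 fragments a library, and no difference was detectable at this depth. P4ha2 was listed at 0.24 and 0.26 FPKM in PRL-3 libraries against 0.09 and 0.06 FPKM in VT libraries and was not tested. Over the 8 tested genes of this group the median was -0.01, with 1 below (12.5%, beside 18% of all genes) and 1 above the VT libraries (12.5%, beside 24.3%).

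Of the 2 genes of glycogen synthesis, Gys1, the glycogen synthase of non-hepatic cells, had 22.9 and 22.2 FPKM in PRL-3 libraries and 22.5 and 23.2 FPKM in VT libraries. Gbe1, the branching enzyme, had 9.83 and 7.95 FPKM against 10.5 and 10.0. Gys1 overlapped, and Gbe1 was lower in both PRL-3 libraries by a difference of -0.19 (SE 0.14, adjusted p = 0.69), which was -0.06 without PRL-3 replicate 2 and -0.33 without PRL-3 replicate 1.

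**Figure D4:**
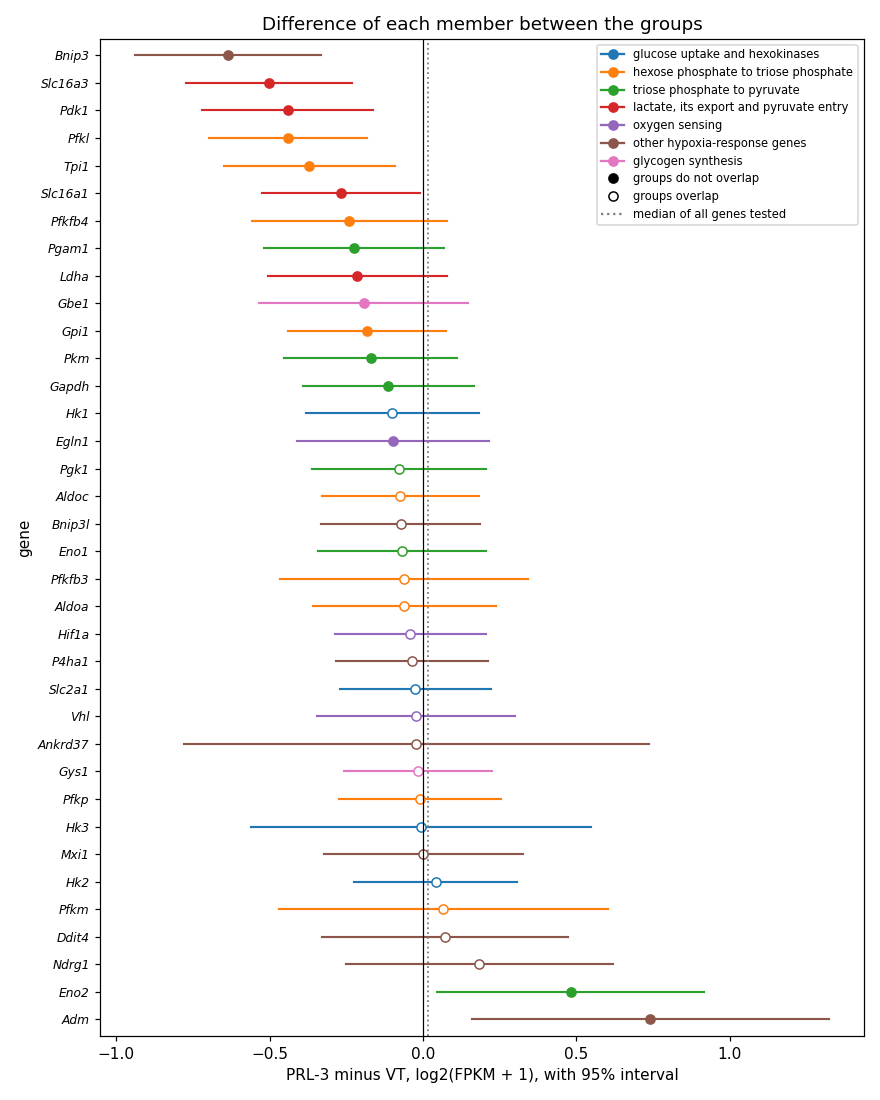
PRL-3 minus VT difference (x axis, log2(FPKM + 1)) of each tested member (y axis, sorted) with its 95% interval from limma, coloured by role; filled points are members whose groups do not overlap. The intervals of 8 members exclude 0 before adjustment, from Bnip3 (-0.64) and Slc16a3 (-0.50) to Eno2 (0.48) and Adm (0.74), and the dotted line is the median of all genes (0.02).

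The summed FPKM of the listed enzymes was slightly lower in PRL-3 libraries. The 18 glycolytic enzymes from the hexokinases to lactate dehydrogenase summed to 9716 and 9524 FPKM in PRL-3 libraries and to 10341 and 10865 FPKM in VT libraries. As a share of all FPKM in the library this was 1.44% and 1.31% against 1.45% and 1.54%, so PRL-3 replicate 1 was nearly level with VT replicate 1. Copies of these genes at other loci are not in the sum. Those of Gapdh summed to 3729 and 3714 FPKM in PRL-3 libraries against 3871 and 4023 in VT libraries. Those of Eno1 overlapped, at 1368 and 1407 against 1347 and 1488. Whether the pathway as a whole was lower is therefore uncertain. The median over the 36 members of the value centred on each gene's own mean was -0.06 in both PRL-3 libraries and 0.05 in both VT libraries on the log2 scale. Abundant genes leaned the same way in general: of 1044 genes with a mean of 100 FPKM or more, 62% were lower on average in PRL-3 libraries, with a median of -0.04. Of the 13 members at that level, 12 had a lower mean and their median was -0.11. Both PRL-3 libraries were below both VT libraries for 7 of these 13 members (53.8%, beside 24.6% of such genes) and above both for 0 (beside 15.1%).

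The libraries did not contribute equally. Among the 14 members below the VT libraries, the lowest value was in PRL-3 replicate 1 for 9 and in PRL-3 replicate 2 for 5, and the highest was in VT replicate 2 for 12. The 2 PRL-3 libraries differed from each other by a median of 0.16 (log2) over the members, and the 2 VT libraries by 0.089. The PRL-3 pair was the wider one for 27 of 36 members (75%, beside 63.4% of all genes). Leaving out 1 library makes it easier for groups not to overlap, and the number of members below both VT libraries was then 22 without PRL-3 replicate 1 (beside 30.4% of all genes) and 23 without PRL-3 replicate 2 (beside 39.9%), while the number above was 7 in each case (beside 43.9% and 39.5%).

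The other genes of the same pathways were read from a list of 79, of which 78 were found and 63 tested. None was called by limma (0 of 63). One of them, Pgam2, reached 1 FPKM only in PRL-3 libraries and so entered through the group in which it was high, and it was left out of the counts that follow. At an unadjusted p under 0.05 there were 7 of 62 lower (11.3%, beside 3.85% of all genes) and 0 higher (beside 5.66%). Both PRL-3 libraries were below both VT libraries for 13 (21%, beside 18% of all genes) and above for 10 (16.1%, beside 24.3%), and the median was -0.02, beside 0.02 over all genes.

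The pentose phosphate pathway, which branches from glucose 6-phosphate to make NADPH and ribose, had 4 of 7 genes below the VT libraries (57.1%, beside 18% of all genes), 1 above (14.3%, beside 24.3%) and a median of -0.13. Pgd, which makes the second NADPH of the pathway, had 114 and 128 FPKM in PRL-3 libraries and 166 and 173 FPKM in VT libraries. Its difference was -0.49 (limma adjusted p = 0.45). G6pdx, the entry enzyme, had 119 and 105 FPKM against 142 and 133 (difference -0.30, adjusted p = 0.51), and Taldo1, the most abundant of the list, 203 and 204 against 233 in each VT library (difference -0.19, adjusted p = 0.59).

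In glycogen breakdown, Pygb, the brain-type phosphorylase, had 7.33 and 6.91 FPKM in PRL-3 libraries and 10.5 and 15.7 FPKM in VT libraries (difference -0.77, limma adjusted p = 0.45). Pgm1, phosphoglucomutase, had 25.9 and 22.9 FPKM against 29.5 and 32.2 (difference -0.33), and Ugp2, which makes UDP-glucose, overlapped at 38.5 to 44.5 FPKM.

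Among further HIF targets, 4 of 18 were below the VT libraries (22.2%, beside 18% of all genes) and 3 above (16.7%, beside 24.3%), shares near those of all genes. Fam162a, a mitochondrial protein, had 93.0 and 104 FPKM in PRL-3 libraries and 119 and 123 FPKM in VT libraries (difference -0.30). Tfrc, the transferrin receptor, had 48.7 and 51.1 FPKM against 60.7 and 67.5 (difference -0.35), and Car9, a cell surface carbonic anhydrase, 1.95 and 1.57 FPKM against 2.59 and 3.28 (difference -0.51). Their limma adjusted p values were 0.48 to 0.51. Ero1a, an oxidase of the endoplasmic reticulum, was higher in both PRL-3 libraries, at 253 and 202 FPKM against 189 and 173 (difference 0.32, adjusted p = 0.55). Vegfa, the angiogenic growth factor, overlapped, at 30.9 and 42.3 FPKM in PRL-3 libraries and 36.1 and 29.1 FPKM in VT libraries, as did Mif, the most abundant of the list, at 939.6 to 1105 FPKM.

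Of the other isozymes and regulators of glycolysis, Pgam2 left out, 3 of 10 were above the VT libraries (30%, beside 24.3% of all genes). There were 0 below (beside 18%), and the median was 0.16. The 3 were Slc2a3 (22.6 and 20.2 FPKM in PRL-3 libraries against 19.5 and 19.0), Pfkfb2 (8.21 and 7.11 against 6.54 and 6.27) and Bpgm (5.52 and 4.02 against 3.20 and 3.89). Pgam2, the muscle mutase, had 1.07 and 1.16 FPKM in PRL-3 libraries and 0.18 and 0.53 FPKM in VT libraries, on about 11 and 13 fragments against 2 and 6, values given as a description only. Slc2a6, a transporter of activated macrophages, had 57.3 and 40.3 FPKM against 39.7 and 41.0, with overlap. Dld, a subunit of pyruvate dehydrogenase, had 134 and 138 FPKM against 120.0 and 119.8 (difference 0.18, adjusted p = 0.61), Pck2, of gluconeogenesis, 58.8 to 76.7 FPKM and Elob, a partner of Vhl, 193 to 244 FPKM, the last 2 with overlap.

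**Figure D5:**
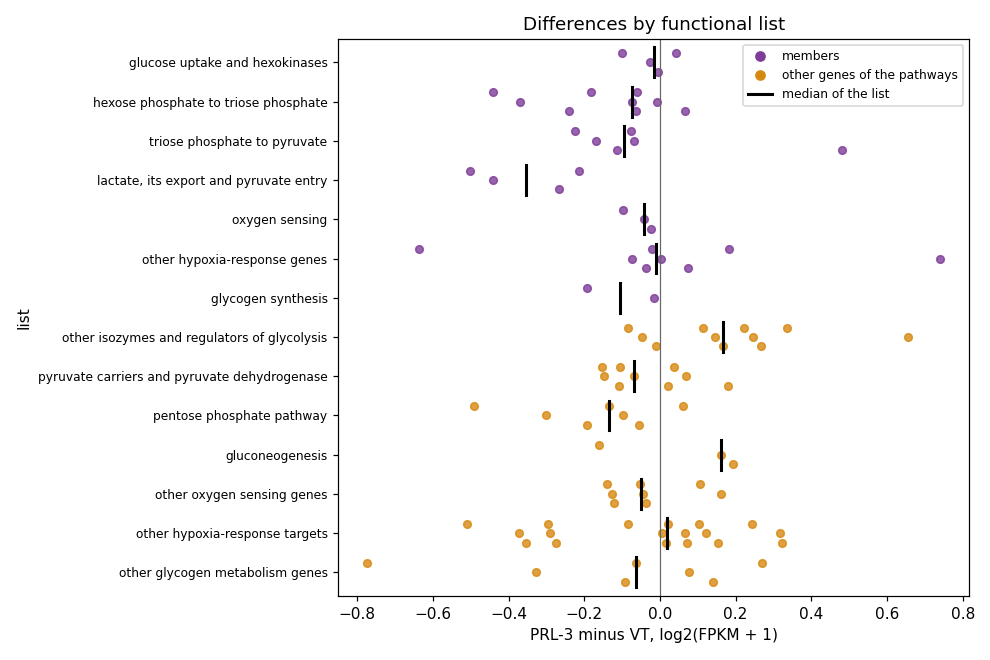
PRL-3 minus VT differences (x axis, log2(FPKM + 1)) of the tested members and of the other genes of the pathways, 1 point a gene, by functional list (y axis), with a bar at each list's median. The lactate, export and pyruvate entry group has the lowest median (-0.35), and the bar of the other isozymes (0.17) includes Pgam2, without which it would be at 0.16.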

How the data were processed

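RNA from 4 cultures was sequenced after TRIzol extraction, mRNA capture, fragmentation, random priming and PCR. The tables the authors deposited give each gene a number with 2 decimals, read here as FPKM because column sums differed between libraries and low values scaled with transcript length. The submitters' processing notes, deposited by the authors, name RSEM, DESeq2 and mm10 without role or version. The aligner used and its annotation were not given in the sources used here. Depth was fitted so that low values of genes with 1 transcript of 600 to 2000 bases became whole fragments. At the best fit 89.7% to 92.0% did within 0.2 fragments, and at a fixed setting 40% would by chance. Depth and fragment length were chosen to make this share highest, so 40% is not the chance level of the best fit. Fragment numbers are approximations from that fit and from the longest transcript of each gene.

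The 2 PRL-3 libraries were compared with the 2 VT libraries on log2(FPKM + 1), without further scaling, by limma (version 3.58.1, R 4.3.3; trend and robust options on), with Benjamini-Hochberg adjustment over all 12193 genes and a call at an adjusted p under 0.05. The scale understates changes of low genes. The procedure was tested on simulated data with larger changes than any member had and a fixed spread for all genes. That test does not cover differences of the size reported here. Gene positions and transcripts were from GENCODE M21 (GRCm38). Values per library are given for members with a p under 0.05 before adjustment or a call under any setting and for the 2 most abundant of each role; among other pathway genes, for the 8 of lowest p and the most abundant of each list. Any further gene was named with its values known. The members and lists were chosen with earlier results of these data known. Alternatives were other pseudocounts, filters, scalings and fits, a replicate block, and leaving out each library.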

Additional observations from a re-analysis of the deposited data

How the results depend on the processing

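Depth limits the members of a few FPKM, such as Adm and Ankrd37, and 2 libraries a group limit every p value. The number of members called was 0 under every setting but one, and 0 to 1 when each library was left out in turn. The call was Bnip3 without PRL-3 replicate 2. Among all genes, 6 were called, 1 with a pseudocount of 0.1, 1 with a pseudocount of 5, 0 without the filter, 1 with a mean of 5 FPKM or more, 2 without the trend and the robust option, and 0 to 100 with a library left out. With the replicate number as a block 15 were called, 0 of them members. Deviations of the replicate 1 libraries from their group means had r = -0.058 over 12193 genes. With 2 libraries a group, the replicate 2 libraries give the same value by construction. This r therefore cannot show whether same-numbered libraries were paired, and the fit reported did not pair them. The other pathway genes had 0 calls under every setting.

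The number of members below both VT libraries was 14, 11 when scaled to TPM (beside 16.3% of all genes), 16 with median-of-ratios scaling (21.1%), 12 with quantile normalisation (20.4%) and 18 to 23 with a library left out (28.8% to 39.9%). The number above was 2, 3 when scaled to TPM (beside 26.2% of all genes), 3 without the filter (19.7%), 1 with a mean of 5 FPKM or more (23.2%), and 2 to 7 with a library left out (34.3% to 43.9%). The median difference of the members was -0.071 in the fit reported, beside 0.016 over all genes. It was -0.074 with a pseudocount of 0.1, -0.065 with a pseudocount of 5, -0.062 without the filter and -0.076 with a mean of 5 FPKM or more. Scaled to TPM it was -0.049 (beside 0.037 over all genes). With median-of-ratios scaling it was -0.091 (beside -0.0028) and with quantile normalisation -0.053 (beside 0.0008). With a library left out it was -0.12 to -0.074 (beside 0.001 to 0.036).

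Sign changes were counted for 20 members: those with an unadjusted p under 0.05 or a call, and the 2 most abundant of each role. Of their 279 alternative values, 15 changed sign, and the cause was not tested. Some members outside these 20 also changed sign with a library left out, such as Pfkm (-0.2024 to 0.3346) and Pfkfb3 (-0.2433 to 0.1174). Scaled to TPM, Hk3 was 0.0162 and Gys1 0.0052, and with quantile normalisation Hk3 was 0.0199. With a library left out, Slc2a1 ranged over -0.0746 to 0.024, Hk3 over -0.3393 to 0.3273, Aldoa over -0.1393 to 0.0166, Hif1a over -0.094 to 0.0118, Vhl over -0.1418 to 0.0947, Bnip3l over -0.1466 to 0.0007, Ndrg1 over -0.0545 to 0.4218 and Gys1 over -0.0382 to 0.0053.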
